A study of Mus musculus with 6 samples.

Results

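The Zfp genes are mouse genes for zinc finger proteins that carry a serial number in place of a functional name. Here they are those with a symbol made of Zfp, a number and at most 1 letter, and with a mean level of at least 5 CPM (a gene's share of the library's counts, scaled to a total of 1000000) in 3 control thymus libraries. Of the 24054 genes that were counted, 354 had such a symbol and 260 of these reached that level. The 260 genes were chosen by their control levels, so how often they were lower in the other group is given as a description beside the same share over all genes, with no test of the set.

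Whole thymus RNA was sequenced from 3 control samples and 3 samples of the genotype K5-rtTA:TetO-RANKL. In the latter the keratin 5 promoter, active in basal epithelial cells, drives the reverse tetracycline transactivator, which with doxycycline switches on a RANKL transgene under the tetracycline operator. RANKL (gene Tnfsf11) is a cytokine of the TNF family. The series calls the controls monogenic and does not say which transgene they carried. Both groups received doxycycline in food and water, from 9 weeks of age for 2 weeks in the treatment protocol of the samples but from 8 weeks of age for 1 week in the description of the series. The labels give neither sex nor litter, and nothing but the titles points to separate animals, so the p-values below reflect variation among these libraries, which may be partly technical. Below, the second group is called RANKL, and fold changes are RANKL over control.

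Most Zfp proteins bind DNA through tandem C2H2 fingers, each folded around a zinc ion held by a pair of cysteines and a pair of histidines. Many also carry a KRAB domain, which recruits the co-repressor Trim28 (KAP1). Trim28 in turn brings the histone methyltransferase Setdb1 and heterochromatin protein 1, a machinery known for silencing retroelements. KRAB genes lie in clusters that grew by tandem duplication. Other Zfp proteins have unrelated roles, in mitosis, RNA decay or ribosome quality control.

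Of the 260 Zfp genes, 187 (71.9%) fell and 13 (5%) rose in RANKL thymus and 60 were not called, with a threshold of 0.05 on the adjusted p (edgeR quasi-likelihood test with Benjamini-Hochberg adjustment over 16096 tested genes). Over all tested genes 29.6% were called lower and 33.8% higher. Among the 11321 tested genes that reached 5 CPM in control, 39.5% were called lower and 22.3% higher. The median log2 fold change of the Zfp genes was -0.94, with the middle 50% of genes between -1.35 and -0.53, against -0.31 for all genes at that control level. The fall was at least 2-fold in 120 Zfp genes and the rise in 9, where 19.2% and 15.3% of all genes at that level were called with such a fold. All 16 listed thymocyte markers and all 8 markers of dividing cells fell in the same libraries. In whole tissue, fewer cells of a type and less RNA per cell cannot be told apart, and the part of cell makeup in the levels of the Zfp genes was not tested.

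Every RANKL library was below every control library in 191 Zfp genes and above in 16, and the groups overlapped in 53. Among all genes at the same control level 43.5% lay wholly below and 25.2% wholly above. Tested against a 1.5-fold change in place of no change, 137 Zfp genes stayed lower and 9 higher. Over all tested genes 16.5% were then lower and 27.4% higher. Those include genes under 5 CPM in control, and the share at the same control level was not computed for this test. Choosing the genes by control level favours those that are higher in control. Chosen by a mean of 5 CPM in the RANKL libraries instead, 155 of 233 Zfp genes were called lower and 21 higher, with a median of -0.84. The share over all genes chosen in that way was not computed, so this count does not show how much the choice matters. With every tested Zfp symbol, whatever its level, 203 of 326 were lower and 33 higher.

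**Figure D1:**
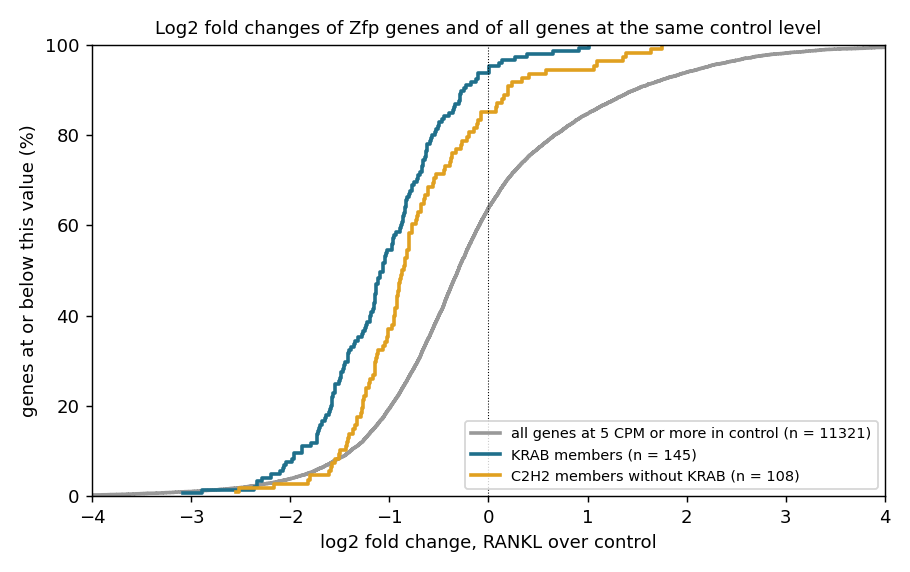
Cumulative share of genes (vertical axis, %) at or below each log2 fold change, RANKL over control (horizontal axis, cut at -4 and 4), for 145 Zfp genes with a KRAB domain, 108 with C2H2 fingers and no KRAB domain, and all 11321 tested genes at 5 CPM or more in control. Both Zfp curves lie left of the curve of all genes over most of the range, with medians of -1.07 and -0.86 against -0.31.

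Within each band of control level the Zfp genes were called lower more often than all genes. In the band of 5 to 10 CPM 23 of 50 Zfp genes (46%) were lower, against 16.9% of all genes. The shares were 64.1% and 25.1% at 10 to 20 CPM, and 83.5% and 38.2% at 20 to 50 CPM. At 50 CPM or more 47 of 55 Zfp genes (85.5%) were lower, against 51.6% of all genes. Of the 13 Zfp genes called higher, 7 stood in the lowest band.

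The largest falls were in genes at quite different levels. Zfp286, a KRAB gene with 10 fingers on chromosome 11 (62751951 to 62789506, GRCm38), stood at 12.1, 14.7 and 14.6 CPM in the 3 control libraries and at 1.59, 1.89 and 1.42 CPM in RANKL. Its log2 fold change was -3.09 ± 0.27 (SE), with an adjusted p of 1.73e-05 by edgeR's quasi-likelihood test, and all RANKL values were far under the lowest control value. Zfp811, a KRAB gene on chromosome 17, followed with 4.70, 10.6 and 2.94 CPM in control and 0.603, 0.749 and 1.08 CPM in RANKL (log2 fold change -2.90 ± 0.51, edgeR adjusted p 0.000821). Its control libraries spread over more than 3-fold and its lowest RANKL library held 11 reads, so the size of this fall is the least precise of the 12 largest.

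Zfp422 and Zfp280d were the most abundant genes among the large falls. Zfp422, a short protein with 5 fingers and no KRAB domain, went from 129, 133 and 155 CPM in control to 18.2, 20.03 and 34.6 CPM in RANKL, a log2 fold change of -2.55 ± 0.24 (edgeR adjusted p 2.67e-05). Zfp280d, with 7 fingers and no KRAB domain, went from 126, 167 and 129 CPM to 22.3, 23.2 and 29.4 CPM (-2.51 ± 0.17, edgeR adjusted p 6.92e-06). In both genes the third RANKL library was the highest of its group and still far under the lowest control value. Zfp770, also without KRAB, had 46.6, 58.2 and 47.2 CPM in control and 10.2, 10.2 and 14.1 CPM in RANKL (-2.16 ± 0.19).

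The other 7 of the 12 largest falls were KRAB genes. Zfp773 fell by 2.37 on the log2 scale, from 5.77, 9.17 and 5.92 CPM to 0.986, 1.26 and 1.81 CPM. Zfp882 fell by 2.34, from 15.2, 17.3 and 17.5 CPM to 2.74, 2.60 and 4.74 CPM. Zfp820 also fell by 2.34, from 3.64, 10.3 and 7.74 CPM to 1.15, 1.38 and 1.76 CPM. None of these had a control library as low as its highest RANKL library. Zfp354c on chromosome 11 had 24.7, 26.9 and 16.6 CPM in control and 5.86, 4.46 and 3.81 CPM in RANKL (-2.29 ± 0.27). Zfp763, Zfp667 and Zfp951 had log2 fold changes of -2.20, -2.11 and -2.07, with edgeR adjusted p-values of 8.05e-05, 0.000195 and 0.000842. All 12 were lower at the threshold whichever library was left out.

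**Figure D2:**
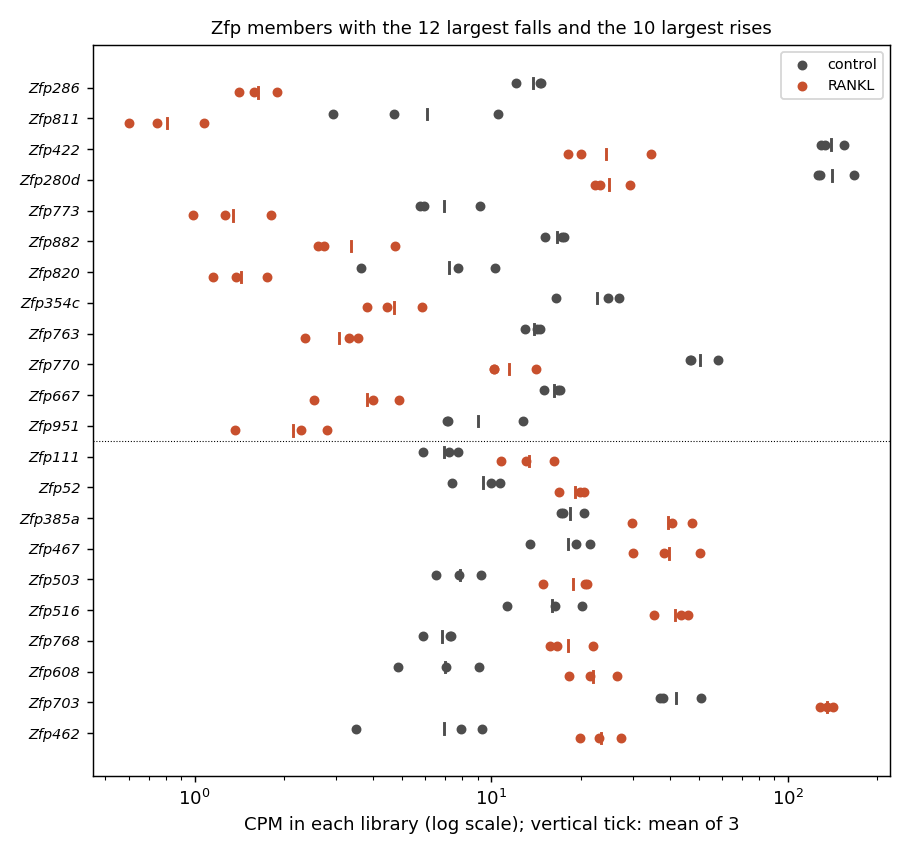
CPM in each of the 6 libraries (horizontal axis, log scale; points are libraries and vertical ticks the mean of 3) for the Zfp genes with the 12 largest falls (upper block) and the 10 largest rises (lower block). Control and RANKL points do not overlap in any of these genes, which was a condition for naming them, and the widest control spreads are those of Zfp811 and Zfp820.

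Of the 10 largest rises, 2 were KRAB genes, 6 had C2H2 fingers without KRAB and in 2 no C2H2 finger was found. Fingers were searched with a fixed sequence pattern, which can miss those that deviate from it. Zfp462, a large chromatin regulator with 33 fingers, rose most, from 7.89, 9.33 and 3.50 CPM in control to 27.4, 23.1 and 19.9 CPM in RANKL (1.75 ± 0.33, edgeR adjusted p 0.00133). Zfp703, a co-repressor of the NET family, rose from 50.9, 38.1 and 37.1 CPM to 141, 135 and 129 CPM (1.66 ± 0.18, edgeR adjusted p 5.63e-05). Its lowest RANKL library was more than 2-fold above its highest control library. Zfp503, of the same family, rose from 9.26, 7.77 and 6.53 CPM to 20.7, 21.1 and 15 CPM (1.25 ± 0.25).

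Zfp608, described in thymocytes as a repressor of the Rag genes, rose from 9.10, 7.02 and 4.85 CPM to 18.2, 26.5 and 21.5 CPM (1.64 ± 0.29, edgeR adjusted p 0.00081). Its paralog Zfp609 was not called (0.16 ± 0.24), with control libraries at 57.8, 43.2 and 29.9 CPM and RANKL libraries at 51.6, 52.1 and 45.0 CPM, inside the control range. The difference between the 2 paralogs was not tested. Zfp516, a regulator of brown fat, rose by 1.36 on the log2 scale, from 20.2, 16.4 and 11.3 CPM to 46.1, 43.6 and 35.3 CPM. Zfp467, which acts in the choice between fat and bone cell fates, rose by 1.10, from 21.6, 19.2 and 13.5 CPM to 50.5, 30.1 and 38.2 CPM.

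Zfp768 (1.39), Zfp385a (1.07), Zfp52 (1.01) and Zfp111 (0.92) completed the 10 largest rises. Zfp52 and Zfp111 were the 2 KRAB genes, at 7.39, 10.7 and 10.02 CPM against 19.99, 20.5 and 16.9 CPM, and at 7.74, 7.18 and 5.87 CPM against 16.3, 10.8 and 13.1 CPM. These 10 genes, and 156 of the 187 lower genes, were called with all libraries and with each one left out. The other 3 called higher were Zfp710, Zfp316 and Zfp36, of which the first 2 are named only because their values had been seen. Zfp710 rose by 0.58 (edgeR adjusted p 0.0238) and lost its call without control replicate 2 (0.104), control replicate 3 (0.0801) or RANKL replicate 2 (0.05003). Zfp316, a KRAB gene, rose by 0.65 (edgeR adjusted p 0.0373) and was not called in 5 of the 6 fits with a library left out, with adjusted p-values of 0.0545 to 0.103 in those, nor without the low-count filter (0.56, adjusted p 0.0854).

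The third, Zfp36, is not a DNA-binding finger protein: it is tristetraprolin, which binds AU-rich elements of mRNAs through CCCH fingers and speeds their decay. It had 145, 129 and 100 CPM in control and 149, 226 and 227 CPM in RANKL (0.66 ± 0.22, edgeR adjusted p 0.0233). The first RANKL library lay just above the highest control library and the others well above it. The call was lost without control replicate 2 (0.0767), control replicate 3 (0.0888) or RANKL replicate 2 (0.0596). Of the 5 Zfp genes in whose protein no C2H2 finger was found, Zfp36, Zfp503 and Zfp703 rose, Zfp330 fell by 0.51 and Zfp839 was not called (-0.42).

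Zfp proteins were sorted by their domains, a feature the choice of genes did not use. A KRAB A-box was found in 145, C2H2 fingers without KRAB in 108, neither in 5, and 2 genes (Zfp191 and Zfp783) had no matched protein. Of the KRAB genes 109 (75.2%) fell, 3 rose and 33 were not called, with a median of -1.07. Of the C2H2 genes without KRAB 76 (70.4%) fell, 7 rose and 25 were not called, with a median of -0.86. The fall was at least 2-fold in 79 KRAB genes and in 40 of the others. The difference between these classes was not tested.

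**Figure D3:**
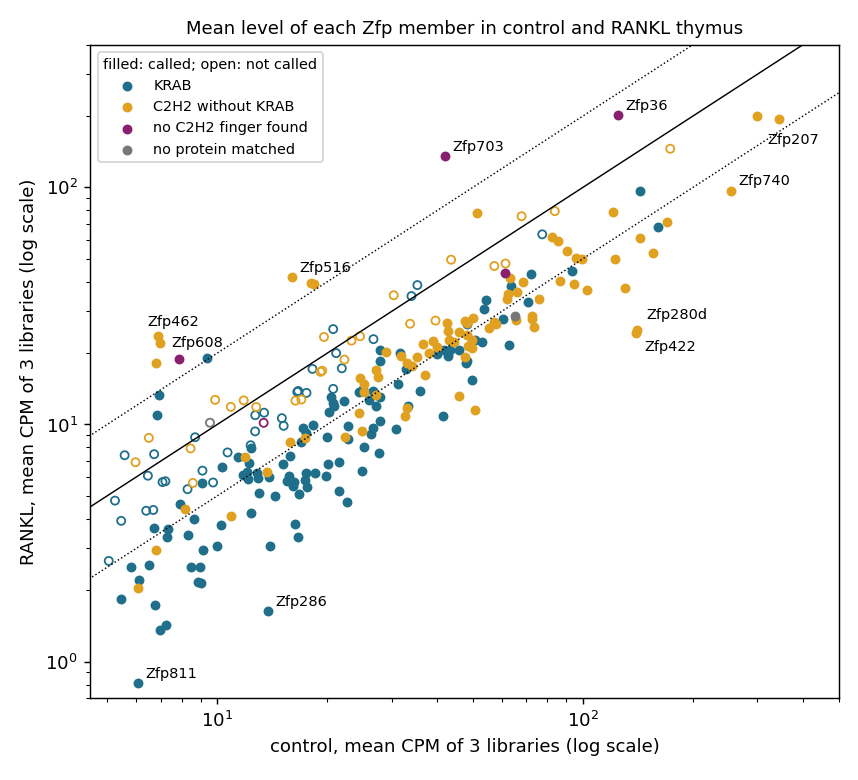
Mean CPM of 3 control libraries (horizontal axis) against mean CPM of 3 RANKL libraries (vertical axis), both on log scales, for the 260 Zfp genes, coloured by domain class and filled where called. The solid line marks equal levels and the dotted lines 2-fold differences; 187 filled points lie below the solid line and 13 above it, and no point lies left of 5 CPM in control because of how the genes were chosen.

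The number of fingers per protein ran from 1 to 36 and was larger in KRAB proteins (median 12) than in C2H2 proteins without KRAB (median 7). In proteins with 1 to 3 fingers 14 of 27 genes (51.9%) fell, with a median of -0.61. The share was 73.9% at 4 to 7 fingers, 74.4% at 8 to 11 and 70.7% at 12 to 15. With 16 or more fingers 38 of 44 genes (86.4%) fell, with a median of -1.13. Zfp462, with 33 fingers, was the 1 gene of that last group that rose, while Zfp142, with 36, fell by 0.95 on the log2 scale. Over all 260 Zfp genes 71.9% fell, and over all genes at 5 CPM or more in control 39.5%. The finger classes were not matched for control level, and differences between them were not tested.

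Zfp genes sat close together: 133 of them lay within 100 kb of another, in 32 runs of neighbours. Of these 133 genes 100 (75.2%) fell, with a median of -1.09. Of the 127 others 87 (68.5%) fell, with a median of -0.85. These 127 include Zfp191, for which no position was matched. The difference between the groups was not tested. The longest run held 14 genes, 11 of them KRAB, on chromosome 7 from 29768552 to 30169775 (GRCm38). It ran from Zfp84 to Zfp146, and 12 of the 14 fell and none rose (median -1.19, range -1.79 to -0.11). Zfp568, which silences a placental promoter of Igf2, lies within that run and was not called (-0.11 ± 0.28), with 27.6, 21.4 and 14.4 CPM in control and 26.2, 17.7 and 16.03 CPM in RANKL.

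The second run held 10 KRAB genes on chromosome 13 from 67312985 to 67553152, of which 9 fell and none rose (median -1.32). Zfp429 was the 1 not called there (-0.53). On chromosome 13 as a whole all 25 Zfp genes had a log2 fold change below 0 and 22 (88%) fell, with a median of -1.24. That share was the highest among chromosomes with at least 12 Zfp genes. The others ran from 60% (chromosome 9) to 78.6% (chromosome 6). Over all 260 Zfp genes 71.9% fell, and differences between chromosomes were not tested. The runs were not uniform. In a run of 6 genes on chromosome 7 (24081877 to 24303840) Zfp111 rose and 4 neighbours fell. In a run of 5 KRAB genes on chromosome 17 (21383707 to 21563362) Zfp52 rose by 1.01, 2 genes fell and 2 were not called.

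Near-identical copies can exchange reads, since how reads matching several genes were counted is not given in the sources used here. In 21 Zfp genes at least 20% of the 50-base stretches of their transcripts also occur in another gene, and 15 of these fell and none rose. In the 239 others 172 fell and 13 rose. The highest protein identity to another of the 260 genes was that of Zfp85, 95.6% to Zfp273, but 86.9% with the search started from Zfp273. Zfp955a and Zfp955b were 95.4% identical either way. The share of such 50-base stretches was 25.2% in Zfp85 and 24.3% in Zfp273, below 51.8% in Zfp955a, 31.7% in Zfp955b and 94.4% in Zfp82. Zfp85 had 8.85, 10.6 and 11.3 CPM in control and 3.34, 3.63 and 4.35 CPM in RANKL (-1.47 ± 0.25, edgeR adjusted p 0.000766), and Zfp273 a log2 fold change of -1.97. The values of genes with such shared stretches are uncertain, and the share of stretches does not measure by how much.

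The 5 genes highest in control had no KRAB domain. Zfp207 (BuGZ), a partner of Bub3 at kinetochores and spindle microtubules, had 338, 399 and 292 CPM in control and 200, 176 and 207 CPM in RANKL, and fell by 0.84 ± 0.16 on the log2 scale. Zfp740 had 255, 269 and 237 CPM against 94.2, 90.1 and 106 CPM (-1.42 ± 0.15, edgeR adjusted p 3.96e-05), and Zfp664 had 175, 177 and 158 CPM against 73.2, 66.1 and 75.9 CPM (-1.27 ± 0.14). Zfp106, an RNA-binding protein, fell by 0.61 (edgeR adjusted p 0.0195), from 362, 295 and 243 CPM to 205, 212 and 183 CPM. That call was lost without control replicate 1 (-0.44, adjusted p 0.0596) or RANKL replicate 3 (-0.49, adjusted p 0.0752). Zfp706 was not called (-0.28 ± 0.16, edgeR adjusted p 0.141), although its RANKL libraries, at 152, 131 and 154 CPM, all lay under its control libraries, at 165, 160 and 194 CPM.

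CPM values do not correct for length. Per kilobase of exon, Zfp207 (51.5 CPM per kb) and Zfp740 (49.8) still led in control, followed by Zfp422 (38.4) and Zfp36 (36.0), and Zfp106 stood at 28.8. The median CV over 3 libraries was 17.8% in control and 16.4% in RANKL. The lowest count of any Zfp gene in a control library was 52 reads (Zfp473) and in a RANKL library 11 reads (Zfp811). In RANKL 223 of the 260 genes still reached a mean of 5 CPM.

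Zfp genes with a described role were listed whatever their outcome, and of 28 tested 13 (46.4%) fell, 7 (25%) rose and 8 were not called. Among all genes at 5 CPM or more in control 39.5% were called lower and 22.3% higher. Not all listed genes were at that level, so the shares are not directly comparable. Zfp57, Zfp423, Zfp521 and Zfp750 were under the control level required, where 60.9% of all tested genes were called higher and 6.24% lower. None of the listed genes under that level fell, and Zfp423 and Zfp750 were among the 7 that rose. Zfp423, a regulator of preadipocytes, rose from a mean of 2.23 CPM in control to 6.28 CPM in RANKL (1.46 ± 0.31, edgeR adjusted p 0.0025), and Zfp521 was not called (0.44 ± 0.28). Zfp335, required for T cell maturation, had 104, 119 and 64.3 CPM in control and 48.6, 48.1 and 53.8 CPM in RANKL (-0.95 ± 0.21, edgeR adjusted p 0.00323). The third control library was near the RANKL values and the other 2 were about double them. Zfp91, an E3 ubiquitin ligase, fell by 0.65, Zfp148 by 1.25, and Zfp281, a regulator of pluripotency, by 0.89. Zfp410, an activator of the chromatin remodeller gene Chd4, fell by 1.13 ± 0.15, and Chd4 itself by 0.71 ± 0.21.

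Among chromatin partners, Zfp644, which works with the histone methyltransferases Ehmt1 and Ehmt2, fell by 1.40 ± 0.16 from 79.2, 77.3 and 61.2 CPM to 30.1, 25.2 and 28.3 CPM. Zfp592 and Zfp687, which bind each other and the chromatin reader Zmynd8, fell by 1.32 and 0.90. Zfp451, a SUMO ligase, fell by 1.02. Zfp827, which binds telomeric chromatin, was not called (0.08 ± 0.29).

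Zfp445, which with Zfp57 protects imprinted methylation, had 121, 196 and 113 CPM in control and 89.2, 93.4 and 108 CPM in RANKL (-0.58 ± 0.20, edgeR adjusted p 0.031). Leaving out control replicate 2 ended the call, where the log2 fold change was -0.36 (adjusted p 0.106), as did leaving out each of the 3 RANKL libraries (adjusted p 0.0553 to 0.113). Zfp57 itself was at 1.35 CPM in control and 1.91 CPM in RANKL, under the control level required. Zfp384 fell by 0.44 with an adjusted p of 0.0446 by edgeR's quasi-likelihood test, from 88.4, 91.2 and 66.8 CPM to 55.9, 65.1 and 63.7 CPM. That call was lost in 4 of the 6 fits with a library left out, namely without control replicate 1 or 2 or RANKL replicate 1 or 3 (adjusted p 0.102 to 0.172), and with library totals as the only scaling (0.0527).

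Some described genes were not called. Zfp318, which controls the splicing that gives IgD, had 36.6, 41.2 and 23.2 CPM in control and 28.7, 21.7 and 29.5 CPM in RANKL (-0.36 ± 0.22), and was called lower without control replicate 3 (-0.58, edgeR adjusted p 0.0222). Zfp809, a KRAB protein that silences murine leukaemia virus DNA, had 27.7, 33.3 and 19.2 CPM against 25.03, 20.6 and 23.1 CPM (-0.24 ± 0.21). Zfp598, a sensor of collided ribosomes, had 63.8, 86.5 and 53.5 CPM against 65.8, 84.6 and 76.2 CPM (0.14 ± 0.19). The log2 fold changes nearest 0 were those of Zfp688 (0.00 ± 0.24), Zfp46 (0.00 ± 0.22) and Zfp783 (0.08 ± 0.32), and their groups overlapped.

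Around the control level that chose the genes, the values were close while the fold changes were not. Just inside it were Zfp473, Zfp229 and Zfp583, with log2 fold changes of -0.93, -0.17 and -1.61. Zfp473, which was not called, had 5.97, 6.75 and 2.42 CPM in control and 2.63, 2.997 and 2.35 CPM in RANKL. Just outside were Zfp750 (4.99 CPM), Zfp248 (4.99 CPM) and Zfp11 (4.93 CPM). Zfp248 and Zfp11 had log2 fold changes of -0.69 and -0.51 and were not called. Zfp750, a regulator of epidermal differentiation, went from 6.42, 5.15 and 3.40 CPM to 54.7, 78.9 and 50.1 CPM, a log2 fold change of 3.60 ± 0.30. Of the 94 Zfp symbols under the level 66 were tested, of which 20 (30.3%) were called higher and 16 (24.2%) lower. Over all 4775 tested genes under that level 60.9% were called higher and 6.24% lower.

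The co-repressor that KRAB proteins recruit and its partners also fell. Trim28 had 552, 472 and 427 CPM in control and 225, 233 and 264 CPM in RANKL (-1.04 ± 0.17, edgeR adjusted p 0.000628). Setdb1 had 97.4, 111 and 76.4 CPM against 51.5, 56.9 and 60.8 CPM (-0.77 ± 0.17, edgeR adjusted p 0.00295). In both genes all RANKL libraries were under all control libraries. Of 26 genes listed for this co-repressor and for heterochromatin 23 fell and none rose, with a median of -0.84. Among all genes at 5 CPM or more in control 39.5% were called lower and 22.3% higher. At 50 CPM or more, where Trim28 and Setdb1 stand, 51.6% of all genes were called lower and 11.4% higher. With a library left out 20 to 25 of the 26 were called lower. Suv39h2 (-0.67) and Chd3 (-0.52) each kept their call in 1 of these 6 fits, that without control replicate 3, and Pphln1 (-0.52) lost it without RANKL replicate 1 or 3 (adjusted p 0.074 and 0.0586). Morc3 (-0.33), Daxx (-0.12) and Ehmt2 (-0.38) were not called. Without control replicate 3 or without the low-count filter Morc3 (adjusted p 0.0302 and 0.0432) and Ehmt2 (0.0265 and 0.028) were called lower, and Ehmt2 also with DESeq2 (0.044).

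The largest falls on that list were in Uhrf1 (-2.08), which guides maintenance methylation, and in the heterochromatin protein 1 genes Cbx1 (-1.87), Cbx5 (-1.81) and Cbx3 (-1.64). Dnmt1, the maintenance methyltransferase, fell by 1.62, Fam208a of the HUSH silencing complex by 1.45 and Atrx by 1.23. The list was drawn up with earlier results of these data known. A second zinc finger family, the Zbtb genes, which pair C2H2 fingers with a BTB domain, was counted in the same way. Of 34 Zbtb genes at 5 CPM or more in control 23 (67.6%) fell, 3 rose and 8 were not called, with a median of -0.86.

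**Figure D4:**
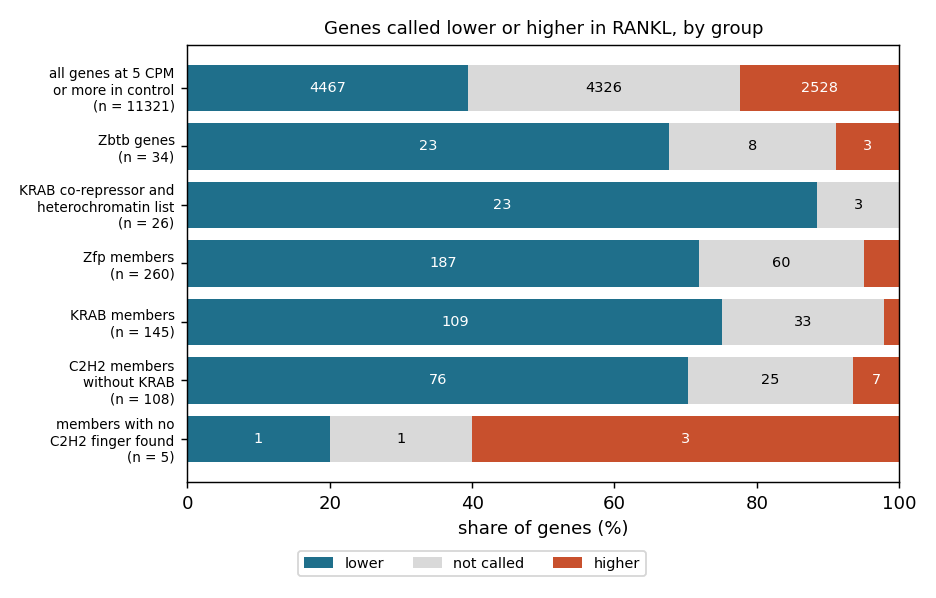
Share of genes (horizontal axis, %) called lower, not called or called higher in RANKL for all tested genes at 5 CPM or more in control, the Zbtb genes, the co-repressor and heterochromatin list, and the Zfp genes in all and by domain class; numbers in the bars are genes. The lower share was 39.5% for all genes at that level and between 67.6% and 88.5% in each other bar except that of the 5 genes in which no C2H2 finger was found.

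Promoters of Zfp genes were searched for 11 short motifs. One of them, ACTACAAT, occurs in promoters that the protein of Zfp143 is known to bind. Zfp143 fell from 43.8, 44.2 and 40.5 CPM to 20.3, 27.6 and 26.7 CPM (-0.81 ± 0.18, edgeR adjusted p 0.00335). Whether its level bears on genes with the motif was not tested. RefSeq promoters of GRCm38.p6 were matched for 219 of the 260 genes, each a window of 300 bases around the start. ACTACAAT on either strand was found in 9 of them (4.1%), in 1.1% of 8946 promoters of genes at 5 CPM or more in control and in 0.8% of all 27025 promoters. CCGGAAGT was found in 11% of the Zfp promoters and 8.9% of those of genes at that level, GCGCATGC in 4.1% and 5.8%, and AAGATGGC in 6.8% and 4.9%. GGGCGG was found in 49.8% and 65.8%, CCAAT in 49.8% and 39.0%, TATAAA in 5.5% and 6.8%, and CACGTG in 7.3% and 10.4%. TGACGTCA was found in 4.1% and 3.3%, CAGCTG in 18.7% and 14.6%, and CAGGTG in 14.2% and 16.7%. The last 2 motifs and CACGTG share the pattern CANNTG and were counted separately. A match is a description of the letters, not a binding site.

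The stretches that hold ACTACAAT are shown because they let the letters around the match be compared. Each is given in the direction of transcription, with the 8 letters of the match, or ATTGTAGT where it lies on the other strand, in capitals.
Zfp1: gcattatgggaATTGTAGTcctacacctca
Zfp128: gccttctgggaATTGTAGTctcagtgtccc
Zfp169: gcattctgggtATTGTAGTtcccccatctc
Zfp180: gagttctgggaATTGTAGTtccattgagct
Zfp58: gacttgtgggaATTGTAGTctggccactgt
Zfp93: gaattctgggaATTGTAGTtccaacgccag
Zfp692: gactaaggctaACTACAATtcccggcaggc
Zfp933: atttccaaagaACTACAATtcccagcattc
Zfp111: acttACTACAATtgtctttcatg

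In GRCm38.p6 these lie at chr8:111643410-111643439 (Zfp1, plus strand), chr7:12881155-12881184 (Zfp128, plus), chr13:48513491-48513520 (Zfp169, minus), chr7:24081867-24081896 (Zfp180, plus) and chr13:67500531-67500560 (Zfp58, minus). The others lie at chr7:24270339-24270368 (Zfp93, plus), chr11:58307010-58307039 (Zfp692, plus), chr4:147848432-147848461 (Zfp933, minus) and chr7:24208377-24208399 (Zfp111, minus). The match began 12 to 73 bases before the start of transcription in 8 genes and 246 bases before it in Zfp111. Their log2 fold changes were not alike. Zfp169 (-2.04), Zfp128 (-1.32), Zfp58 (-1.14), Zfp1 (-0.86) and Zfp180 (-0.84) fell, Zfp933 (-0.28), Zfp692 (-0.19) and Zfp93 (-0.13) were not called, and Zfp111 rose. Over all 260 Zfp genes 71.9% fell.

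The 6 libraries held 18254870 to 25357060 counts, so 3 reads stood for 0.118 to 0.164 CPM. The transgene product Tnfsf11 was at 5.77, 6.59 and 8.67 CPM in control and at 3393, 4667 and 2478 CPM in RANKL, which fits the labels. Levels of cell type markers differed between groups, and cells were not counted. All 16 thymocyte markers fell, their summed level going from 15460 to 16290 CPM in control to 524.6 to 1836 CPM in RANKL, and all 8 markers of dividing cells fell, from 1773 to 2492 CPM to 516.4 to 613.7 CPM. Summed markers rose for epithelium (9 of 10 rose; 1482 to 1675 CPM against 6190 to 7261 CPM), fibroblasts (7 of 8 rose; 444 to 544 CPM against 4220 to 7612 CPM) and myeloid cells (7 of 7 tested of 8 rose; 876 to 999 CPM against 3761 to 5747 CPM). Of endothelial markers 3 of 5 rose, of B cell markers 0 of 5 were called and of fat markers 1 of 4 fell.

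The summed level of the 260 Zfp genes was 9684, 10890 and 8656 CPM in control and 5698, 5324 and 5986 CPM in RANKL. They took 0.866% to 1.09% of the counts in control and 0.532% to 0.599% in RANKL. The KRAB genes summed to 3120 to 3987 CPM in control and 1629 to 1950 CPM in RANKL. Among the 187 Zfp genes that fell, RANKL replicate 3 (thymocyte sum 1836 CPM) was the highest of its group in 113 and the lowest in 15. RANKL replicate 2 (820.3 CPM) was the highest in 16 and the lowest in 118. RANKL replicate 1 (524.6 CPM) was the highest in 58 and the lowest in 54. Among all 4467 genes called lower at 5 CPM or more in control, RANKL replicate 3 was the highest in 2797 and the lowest in 396. RANKL replicate 2 was the highest of those in 623 and the lowest in 1961, and RANKL replicate 1 the highest in 1047 and the lowest in 2110. Control replicate 2 (15460 CPM) was the highest control in 125 of the 187 Zfp genes, a count not made over all genes. Whether the order of the libraries follows the thymocyte sum was not tested.

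**Figure D5:**
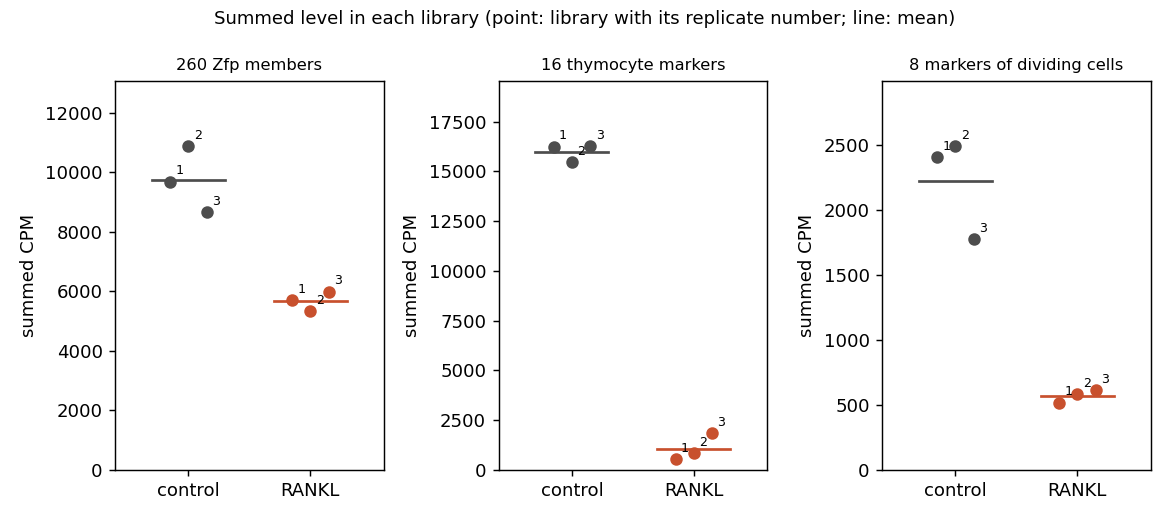
Summed CPM in each library (vertical axes, from 0; points are libraries with their replicate number and lines the mean of 3) for the 260 Zfp genes, 16 thymocyte markers and 8 markers of dividing cells. The groups do not overlap in any panel; the Zfp sum lies between 8656 and 10890 CPM in control and between 5324 and 5986 CPM in RANKL.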

How the data were processed

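The authors deposited a table of raw read counts for each gene in 6 thymus libraries. Per the labels' protocols, libraries were stranded and made from mRNA of TRIzol extracts. STAR and mm10 are named in the submitters' processing notes. Versions, counter, strand setting and annotation: not given in the sources used here. Reads of overlapping or antisense genes and of near-identical copies may therefore be mixed.

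Printed levels are a gene's count as a share of the library's total, scaled to 1000000. Fold changes come from edgeR 4.0.16 in R 4.3.3 (filterByExpr, TMM factors of 0.960 to 1.04, robust quasi-likelihood fit and test, two-sided, no covariate), with Benjamini-Hochberg adjustment over 16096 genes and a threshold of 0.05; standard errors derive from the F statistic. The Zfp genes and all lists were chosen with earlier results of these data known. Replicates were numbered in accession order. Named genes were the 12 largest falls and 10 largest rises among called Zfp genes without overlap, the 5 highest in control, a list of 29 Zfp genes with described roles (28 tested), the genes nearest the control level on each side, the 3 fold changes nearest 0 and the gene of highest protein identity. Genes holding ACTACAAT were named after the promoter search.

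Proteins were translated from GENCODE M21 transcripts (GRCm38, the assembly of mm10), since the RefSeq protein table planned for was not used here. KRAB A-boxes were found with an HMMER 3.4 profile built from 111 pattern matches (E-value limit 1e-05), and identities with BLAST 2.17.0. Promoters are those of RefSeq. On simulated counts (14959 genes tested) the share called in the right direction was 12% at a 1.5-fold change, 40% at 2-fold, 98% at 4-fold and 100% at 8-fold, and 8 of 133 calls were false. The simulation changed 50 genes at each fold and used the same dispersion for all genes. In the data 4765 genes were called lower and 5437 higher, so these shares do not carry over to them. Alternatives were other scalings, no filter, DESeq2 1.42.0, a 1.5-fold threshold, other choices of the genes and each library left out. Floors cover counting error only.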

Additional observations from a re-analysis of the deposited data

How the results depend on the processing

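The count of 187 Zfp genes called lower was 188 with RLE factors, 183 with library totals, 192 without a low-count filter, 191 with DESeq2 and 137 against a 1.5-fold change, and 164 to 183 with a library left out; the KRAB count of 109 ran from 94 to 111 with a library left out. The count of 13 called higher was 12 without a low-count filter, where Zfp316 lost its call, and 10 to 12 with a library left out. It was 21 of 233 genes chosen at 5 CPM in RANKL, 33 of 326 with every tested Zfp symbol and 6 of 210 at 10 CPM or more in control, changes that follow from which genes were counted. Against a 1.5-fold change 1 KRAB gene was higher, in place of 3, and 14 of the 26 co-repressor and heterochromatin genes were lower, in place of 23. Leaving out the 21 genes that share 20% or more of their 50-base stretches with another, a choice made after seeing the data, gave 172 lower and 13 higher of 239. No Zfp gene called in 1 direction was called in the other under any scaling, filter, tool or left-out library tried. Zfp473, not called (edgeR adjusted p 0.066), was called lower without a filter (0.0408), with DESeq2 (0.0372) and without control replicate 3 (0.00961); Zfp248 was called lower with DESeq2 (0.0492). No paired analysis was possible because the labels give no replicate numbers. With 3 libraries a group a Zfp gene that was not called may still differ.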
